A study of Mus musculus with 6 samples.

Results

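The lipid-associated macrophage genes described here were 9 genes picked by name: Trem2, Tyrobp, Gpnmb, Lgals3, Lpl, Fabp4, Fabp5, Plin2 and Pparg. All 9 were found by symbol among the 52550 genes of the count table, and all 9 were among the 16402 genes with enough counts to be tested. They were measured by RNA-seq in bone marrow macrophages of C57BL/6 mice, in 3 libraries of MSR1 KO macrophages, in which the gene of macrophage scavenger receptor 1 was knocked out, and in 3 libraries of MSR1 WT macrophages. Both groups were grown for 7 days with 25 ng/ml M-CSF, the growth factor that turns marrow precursors into macrophages, and were then kept for 48 h across a transwell membrane from bone marrow stromal cells (BMSCs). Every library therefore came from co-cultured macrophages, and macrophages kept alone were not among them. The MSR1 KO macrophages came from knockout mice, so their marrow precursors were MSR1 KO before culture as well. The labels do not say that the libraries of a group came from separate animals, so the p-values measure the spread between these libraries.

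Macrophages that take up much lipid switch on a shared set of genes. TREM2 is a surface receptor for lipids and lipoproteins that signals through the adaptor TYROBP, also called DAP12. PPARγ is a nuclear receptor that is activated by fatty acid derivatives and turns on genes for lipid uptake, transport and storage, among them Fabp4, Lpl and Plin2. GPNMB is a glycoprotein of lysosomes and the cell surface, galectin-3 (Lgals3) is a secreted sugar-binding protein that gathers at damaged lysosomes, LPL releases fatty acids from lipoprotein triglycerides, FABP4 and FABP5 carry fatty acids in the cytosol, and perilipin 2 (Plin2) coats lipid droplets. MSR1 itself takes up modified lipoproteins.

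Total counts were between 36143518 and 47417448 per library. The targeted gene Msr1 was at 43.0 to 59.0 CPM (counts scaled to a fixed library total) in MSR1 KO and at 183 to 223 CPM in MSR1 WT, so transcripts of it remained in the knockout; its log2 fold change was -2.02 (adjusted p = 0.0012, edgeR). All 12 macrophage markers listed were measured, and their summed level was 24423 to 25748 CPM in MSR1 KO and 25027 to 27884 CPM in MSR1 WT. The most abundant was Lyz2, with a mean of 14155 CPM over all libraries. Of the 12, Fcgr1 (log2 fold change 1.14) and Aif1 (0.67) rose and Mrc1 (-0.39) fell at an adjusted p under 0.05 by edgeR. None of these calls held in every fit with 1 library left out. Stromal markers were also present: all 12 were measured, 4 of them fell (Pdgfra, Cxcl12, Pdgfrb and Acta2), and the sum of the 12 was 1650 to 2146 CPM in MSR1 KO against 2294 to 2948 CPM in MSR1 WT. These 4 calls became 0 when replicate 1 of either genotype was left out and 1 without MSR1 KO replicate 3, and Thy1 (log2 fold change 1.31) and Lum (0.46) had higher values in MSR1 KO without passing. Of 10 adipocyte markers, Cfd, Cidec and Lep were at 0 counts in every library, which allows up to 3 counts, and only Lipe and Plin4 had enough counts to be tested. Bulk RNA cannot separate fewer cells of a type from less RNA per cell.

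None of the 9 genes passed an adjusted p of 0.05 in edgeR's quasi-likelihood test with Benjamini-Hochberg adjustment over all 16402 genes, of which 4.91% passed, 2.66% with lower and 2.25% with higher values in MSR1 KO. At an unadjusted p under 0.05 there were 3, Fabp4, Lgals3 and Gpnmb, all with lower values in MSR1 KO, beside 18.9% of all tested genes in either direction and 10.2% in that direction. DESeq2's Wald test, which was run as an alternative, placed 2 of the 9, Fabp4 and Lgals3, under an adjusted p of 0.05, both lower in MSR1 KO, beside 9.95% of all genes with an adjusted p in that test and 5.38% in that direction. Under the definition of a differentially expressed gene used in the study (a fold change above 1.5 with an unadjusted p under 0.05), 1 of the 9 counted, Fabp4, beside 8.64% of all tested genes and 5.05% in its direction. The groups did not overlap for 2 of the 9, Lgals3 and Fabp4, both with every MSR1 KO library below, beside 25.5% of all tested genes and 13.4% in that direction. The median log2 fold change (MSR1 KO over MSR1 WT) of the 9 genes was -0.05, and that of all tested genes was -0.0023. For 8 of the 9, all but Fabp4, the 95% interval of the log2 fold change lay within 0.58 of 0 on either side, which is a fold change of 1.5. All 9 were counted well, from 700 counts of Fabp4 in an MSR1 KO library to 216710 counts of Gpnmb in an MSR1 WT library.

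**Figure D1:**
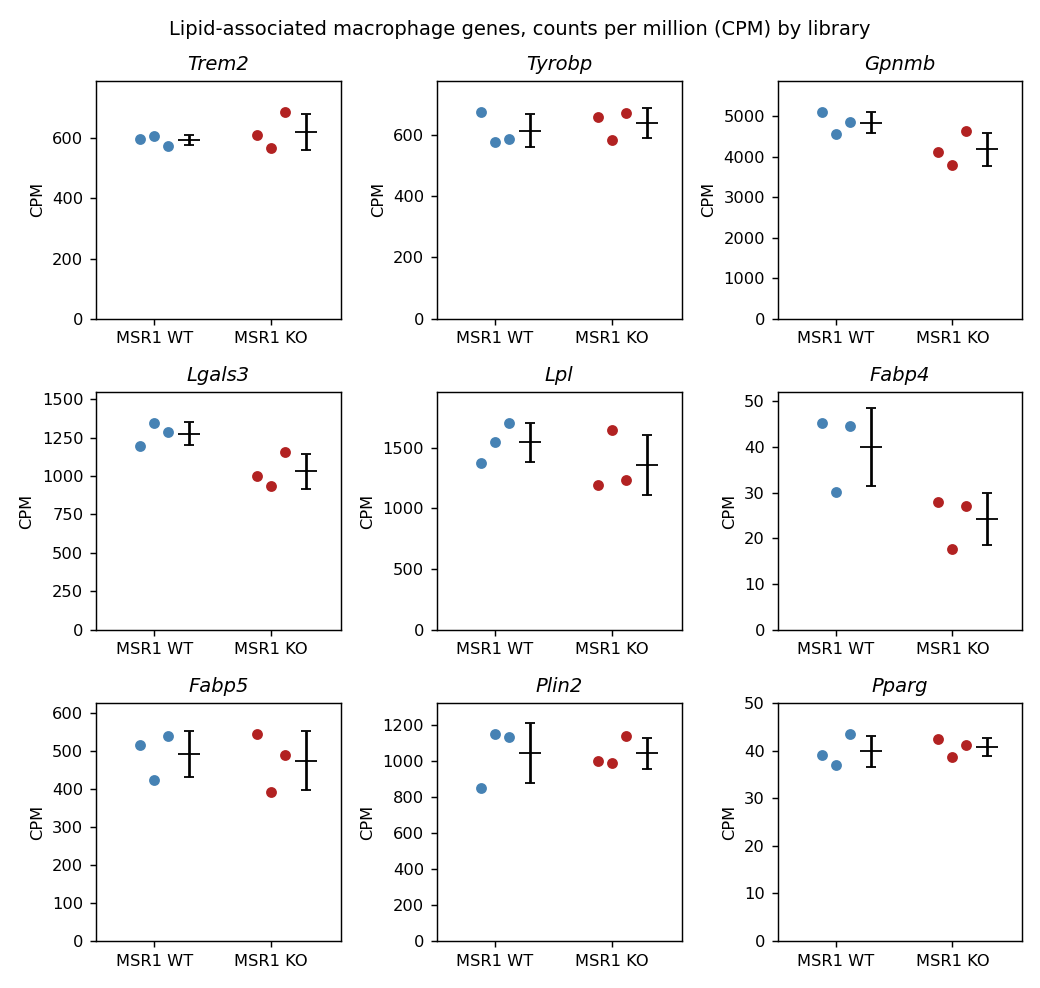
Level of each of the 9 lipid-associated genes in every library, with 1 panel per gene and its own axis in TMM-scaled CPM; points are libraries and bars the mean ± SD of the 3 libraries of each genotype. The MSR1 KO points lie below all MSR1 WT points for Lgals3 and Fabp4, and the groups overlap for the other 7 genes.

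Promoter sequence was at hand for 5 of the 9 genes in RefSeq's table for GRCm38.p6 (Trem2, Gpnmb, Lgals3, Plin2 and Pparg) and not for Tyrobp, Lpl, Fabp4 and Fabp5. The 250 bases before the annotated start are printed for 3 genes of different role, the receptor Trem2, the lysosome-associated lectin Lgals3 and the droplet protein Plin2. The windows of Gpnmb and Pparg were searched as well and are not printed. The printed bases run 5′ to 3′ on the strand of the gene. Capitals mark each match, on either strand, to any of the letter patterns that were searched.
Trem2 (chr17:48346151-48346400, plus strand): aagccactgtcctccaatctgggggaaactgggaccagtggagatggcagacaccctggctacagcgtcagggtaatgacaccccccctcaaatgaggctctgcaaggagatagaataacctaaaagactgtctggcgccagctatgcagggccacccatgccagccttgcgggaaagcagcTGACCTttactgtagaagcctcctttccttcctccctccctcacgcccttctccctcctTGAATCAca
Lgals3 (chr14:47373610-47373859, plus strand): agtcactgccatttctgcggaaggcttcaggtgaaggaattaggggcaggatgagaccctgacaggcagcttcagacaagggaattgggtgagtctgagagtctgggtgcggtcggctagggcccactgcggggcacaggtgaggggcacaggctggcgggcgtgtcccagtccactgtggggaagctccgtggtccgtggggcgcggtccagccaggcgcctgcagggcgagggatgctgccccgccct
Plin2 (chr4:86670060-86670309, minus strand): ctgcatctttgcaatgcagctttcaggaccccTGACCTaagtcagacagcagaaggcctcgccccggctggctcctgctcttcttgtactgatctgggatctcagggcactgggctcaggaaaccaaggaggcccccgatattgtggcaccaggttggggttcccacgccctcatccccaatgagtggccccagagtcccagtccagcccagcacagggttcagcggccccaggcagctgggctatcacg
The patterns were AGGTCA (the core element of nuclear receptors), a direct repeat of AGGTCA with 1 base between the copies (DR1, the arrangement bound by PPARγ with its partner RXR), CACGTG and CATGTG (recognised by factors of the MiT/TFE group), TGANTCA (AP-1), GAGGAAGT (PU.1) and TTGCNNAA (C/EBP). The Trem2 window held AGGTCA on its minus strand, seen as TGACCT 68 to 63 bases before the start, and TGANTCA 9 to 3 bases before it. The Plin2 window held AGGTCA on the strand opposite to the gene, 218 to 213 bases before the start. The Lgals3 window, with 66.0% G and C, and the Gpnmb window held no match. Of the 3 Pparg starts, the first and the second each had an AGGTCA and the third had 2 matches to TTGCNNAA. AGGTCA occurred in 14.0% of all 32851 windows of this length and the DR1 repeat in 0.0335%. The shares for the other patterns were 6.02% for CACGTG, 12.3% for CATGTG, 6.75% for TGANTCA, 2.44% for GAGGAAGT and 9.56% for TTGCNNAA. These are matches of letters and not measured binding sites. The annotated gene span of Lgals3 begins upstream of the printed window, which belongs to a start inside that span. Likewise the 3 Pparg windows end inside the annotated span of Pparg, which begins at 115360951. The Gpnmb window ends at 49036517, before the annotated span of Gpnmb begins at 49036546. The bases after the start of that Gpnmb window were not found in a transcript, so its lack of a match may not apply to the start in use.

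Trem2 and Tyrobp, the receptor and its adaptor, had close to the same level in both genotypes. Trem2 (ENSMUSG00000023992.14) lies on chromosome 17 from 48346401 to 48354147 on the plus strand of GRCm38. Its level was 610, 567 and 688 CPM in MSR1 KO replicates 1 to 3 and 596, 608 and 575 CPM in MSR1 WT replicates 1 to 3. The highest and the lowest library were both MSR1 KO, and the MSR1 WT libraries lay between them. The log2 fold change of Trem2 was 0.07 (95% interval -0.12 to 0.25, adjusted p = 0.73 by edgeR), and it was -0.0073 without MSR1 KO replicate 3.

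Tyrobp (ENSMUSG00000030579.10) lies on chromosome 7 from 30413760 to 30417585 on the plus strand. It was measured at 661, 583 and 672 CPM in MSR1 KO replicates 1 to 3 and 675, 578 and 588 CPM in MSR1 WT replicates 1 to 3. The highest and the lowest library were both MSR1 WT. The log2 fold change was 0.06 (95% interval -0.14 to 0.26, adjusted p = 0.79 by edgeR). The ratio of Tyrobp counts to Trem2 counts was 1.03 ± 0.0532 in MSR1 KO and 1.04 ± 0.0912 in MSR1 WT (SD, n = 3 each), with p = 1.0 in an exact two-sided permutation test. The 2 transcripts differ in length, so this ratio compares genotypes and not the amounts of the 2 mRNAs.

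Gpnmb and Lgals3, which both encode proteins tied to lysosomes, had lower means in the MSR1 KO macrophages without passing the adjusted test. Gpnmb (ENSMUSG00000029816.10; chromosome 6 from 49036546 to 49070929, plus strand) had the highest CPM of the 9 genes, not scaled by transcript length, and took up 0.376% to 0.513% of all counts of a library. It was measured at 4115, 3793 and 4624 CPM in MSR1 KO replicates 1 to 3 against 5102, 4568 and 4855 CPM in MSR1 WT replicates 1 to 3. MSR1 KO replicate 3 lay above MSR1 WT replicate 2, so the groups overlapped. For Gpnmb the log2 fold change was -0.21 (95% interval -0.41 to -0.02, unadjusted p = 0.035, adjusted p = 0.22 by edgeR), and it was negative with every library left out in turn, from -0.29 to -0.15. Osteoclasts also make GPNMB, and of 6 osteoclast markers tested 3 fell, with a sum over 8 markers of 418 to 545 CPM in MSR1 KO and 715 to 741 CPM in MSR1 WT and with Calcr at 0 counts. Most of that sum was Mmp9, which did not pass (log2 fold change -0.33, adjusted p = 0.18 by edgeR). Ocstamp (0.70) had a higher value in MSR1 KO without passing. The 3 calls became 1 or 2 when a library was left out. The part of osteoclast markers in the Gpnmb value was not tested.

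Lgals3 (ENSMUSG00000050335.16; chromosome 14 from 47367751 to 47386160, plus strand) was measured at 999, 936 and 1159 CPM in the MSR1 KO libraries. The MSR1 WT libraries had 1196, 1344 and 1285 CPM of Lgals3. Every MSR1 KO library was below every MSR1 WT library, although the gap between MSR1 KO replicate 3 and MSR1 WT replicate 1 was small. The log2 fold change of Lgals3 was -0.31 (standard error 0.09, 95% interval -0.51 to -0.10, unadjusted p = 0.0093, adjusted p = 0.11 by edgeR). An exact two-sided permutation test of the 6 values gave p = 0.1, the smallest that 3 against 3 libraries allow. Without MSR1 KO replicate 3 the log2 fold change was -0.39 with an edgeR adjusted p of 0.047, and DESeq2 with all libraries gave -0.30 with an adjusted p of 0.047. Stromal cells and fibroblasts express Lgals3 as well, and the part of the lower stromal marker sum in this value was not tested.

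The genes of fatty acid release, transport and storage differed from each other: Fabp4 had the largest fold change of the 9, and Lpl, Fabp5 and Plin2 had small ones. Fabp4 (ENSMUSG00000062515.3; chromosome 3 from 10204088 to 10208576, minus strand) was counted 1006, 700 and 1262 times in MSR1 KO replicates 1 to 3, or 28.0, 17.6 and 27.2 CPM. In MSR1 WT replicates 1 to 3 it was counted 1865, 1433 and 1844 times, or 45.2, 30.2 and 44.6 CPM. All 3 MSR1 KO libraries were below all 3 MSR1 WT libraries, and replicate 2 was the lowest of its group in both genotypes. The mean was 24.2 ± 5.79 CPM in MSR1 KO and 40.0 ± 8.51 CPM in MSR1 WT (SD, n = 3 each).

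The log2 fold change of Fabp4 was -0.72 (standard error 0.21, 95% interval -1.21 to -0.24, unadjusted p = 0.0086, adjusted p = 0.10 by edgeR), a fitted difference of -39.4% with an interval from -56.6% to -15.3%. The exact two-sided permutation test gave p = 0.1, the smallest possible here. DESeq2 gave a log2 fold change of -0.72 with an adjusted p of 0.0085, and over all alternatives the adjusted p was between 0.0085 and 0.29. Without MSR1 KO replicate 2 the log2 fold change was -0.54, and Fabp4 then no longer met the definition used in the study. FABP4 is also abundant in adipocytes, which BMSCs can form. The 10 adipocyte markers summed to 40.7 to 52.6 CPM in MSR1 KO and 34.3 to 36.9 CPM in MSR1 WT. Nearly all of that was Lipe, which rose (47.5 ± 6.60 against 32.5 ± 1.08 CPM), while Plin4, the other marker tested, fell (0.835 ± 0.283 against 2.88 ± 0.549 CPM; SD, n = 3 each). Of 6 fits with 1 library left out, Lipe kept its call in 1 and Plin4 in 0. Adiponectin (Adipoq) had at most 8 counts in any library and perilipin 1 (Plin1) at most 6. The part of these markers in the Fabp4 value was not tested.

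Fabp5 (ENSMUSG00000027533.10; chromosome 3 from 10012548 to 10016607, plus strand) belongs to the same gene cluster, 187.5 kb from Fabp4. It was measured at 544, 392 and 488 CPM in MSR1 KO replicates 1 to 3 and 516, 424 and 538 CPM in MSR1 WT replicates 1 to 3. Here too replicate 2 was the lowest of its group in both genotypes, and the groups overlapped throughout. For Fabp5 the log2 fold change was -0.05 (95% interval -0.36 to 0.25, adjusted p = 0.88 by edgeR), and it was 0.07 without MSR1 KO replicate 2 and 0.01 without MSR1 WT replicate 3.

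Set against each other within a library, Fabp5 and Fabp4 counts separated the genotypes, as Fabp4 alone did. Because Fabp5 hardly differed (log2 fold change -0.05), the ratio mostly repeats the Fabp4 difference and is no separate result. There were 19.4, 22.3 and 18.0 Fabp5 counts per Fabp4 count in MSR1 KO replicates 1 to 3 and 11.4, 14.1 and 12.0 in MSR1 WT replicates 1 to 3. Every MSR1 KO library was above every MSR1 WT library, and the log2 difference of the mean ratio was 0.67, with 0.59 to 0.76 when each library was left out in turn. The exact two-sided permutation test gave p = 0.1, the smallest possible, for this ratio, which was formed after the values of both genes were known. The cluster's other genes Pmp2, Fabp9 and Fabp12 had 0 counts in every library. Of 8 tested neighbours within 500000 bases, none passed an adjusted p of 0.05 by edgeR, 3 had an unadjusted p under 0.05 and 2 (Zfp704 and Pag1) passed by DESeq2. Beside these stand 18.9% of all tested genes at that unadjusted p and 9.95% of all genes by DESeq2. Among the neighbours, the log2 fold changes were -0.45 for Zfp704 (adjusted p = 0.058), 0.42 for Pag1 (adjusted p = 0.096) and 0.02 for Impa1 (adjusted p = 0.94) in edgeR.

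Lpl (ENSMUSG00000015568.16) lies on chromosome 8 from 68880491 to 68907448 on the plus strand, 29.2 Mb from Msr1. It was measured at 1193, 1644 and 1237 CPM in MSR1 KO replicates 1 to 3 and 1378, 1552 and 1704 CPM in MSR1 WT replicates 1 to 3. MSR1 KO replicates 1 and 3 were below all MSR1 WT libraries, whereas MSR1 KO replicate 2 was above 2 of them. For Lpl the log2 fold change was -0.19 (95% interval -0.49 to 0.12, adjusted p = 0.52 by edgeR), and with 1 library left out it ran from -0.35 without MSR1 KO replicate 2 to -0.09 without MSR1 KO replicate 1, with adjusted p-values of 0.12 and 0.81.

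Plin2 (ENSMUSG00000028494.12) lies on chromosome 4 from 86648386 to 86670060 on the minus strand. Its level was 1004, 989 and 1143 CPM in MSR1 KO replicates 1 to 3 and 852, 1151 and 1134 CPM in MSR1 WT replicates 1 to 3. The lowest and the highest library were both MSR1 WT, and the means were 1045 ± 84.9 and 1046 ± 168 CPM (SD, n = 3 each). The 95% interval of the log2 fold change ran from -0.28 to 0.28 with an adjusted p of 1.00 by edgeR, and its sign changed with the scaling.

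Pparg (ENSMUSG00000000440.12; chromosome 6 from 115360951 to 115490399, plus strand), the regulator of the group, was measured at 42.5, 38.8 and 41.2 CPM in the MSR1 KO libraries. The MSR1 WT libraries had 39.1, 37.1 and 43.5 CPM of Pparg. The MSR1 KO libraries all lay inside the range of the MSR1 WT libraries. For Pparg the log2 fold change was 0.03 (95% interval -0.17 to 0.24, adjusted p = 0.90 by edgeR), and it was -0.02 without MSR1 WT replicate 2.

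**Figure D2:**
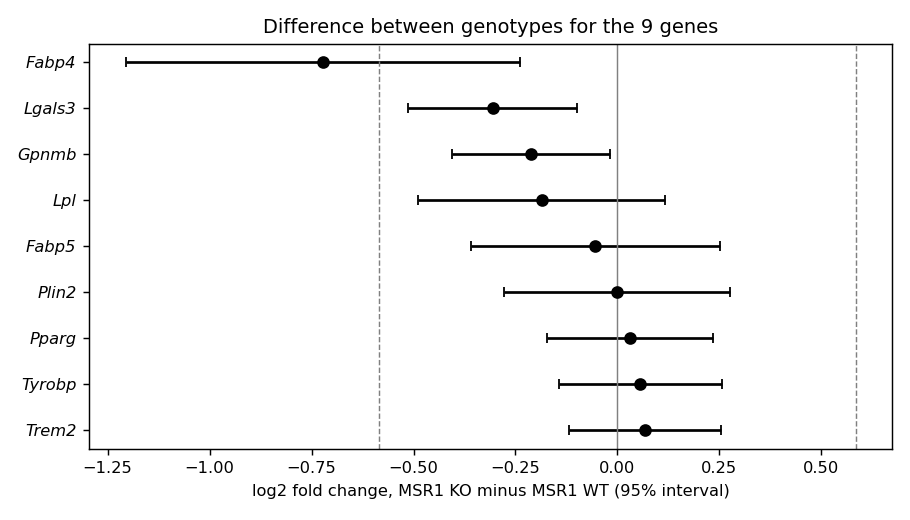
Log2 fold change of each of the 9 genes, MSR1 KO over MSR1 WT, with its 95% interval from edgeR's quasi-likelihood fit; dashed lines mark a fold change of 1.5. The interval of Fabp4 (-1.21 to -0.24) is the only one of the 9 that reaches past a dashed line.

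Per kilobase of the annotated principal transcript, the 9 genes formed a high group of 7 and a low pair. Over all 6 libraries the mean level was 1218 CPM per kilobase for Gpnmb and 1110 for Tyrobp, followed by 813 for Lgals3, 558 for Trem2, 554 for Plin2, 490 for Fabp5 and 353 for Lpl. Fabp4 followed at 35.9 and Pparg at 22.8 CPM per kilobase. Lpl, the lowest of the high group, was 9.83 times as high as Fabp4, and their libraries did not overlap. Nor did those of Tyrobp and Lgals3, or of Lgals3 and Trem2, whereas Gpnmb overlapped Tyrobp, Trem2 overlapped Plin2, Plin2 overlapped Fabp5, Fabp5 overlapped Lpl and Fabp4 overlapped Pparg when both genotypes were pooled. Among 15862 protein-coding genes with a principal transcript and a count, Gpnmb was at rank 22, Tyrobp at 25, Lgals3 at 42 and Trem2 at 75. Plin2 was at rank 76, Fabp5 at 86, Lpl at 139, Fabp4 at 1902 and Pparg at 3006.

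Some neighbours in this order stood differently within each genotype. In the MSR1 KO libraries Tyrobp and Gpnmb were level, with means of 1132 and 1129 CPM per kilobase, and in all 3 MSR1 WT libraries Gpnmb (mean 1308) was above Tyrobp (mean 1089). Fabp4 was 1.98 times as high as Pparg in MSR1 WT, where the 2 genes did not overlap, and 1.17 times as high in MSR1 KO, where they did. Fabp5 and Lpl did not overlap in MSR1 WT and overlapped in MSR1 KO, and Trem2 and Plin2 overlapped in both, with Trem2 first in MSR1 KO and Plin2 first in MSR1 WT. These differences in order were not tested. The levels depend on the length used: over the union of all annotated exons, a choice made after the data were seen, Tyrobp came first at 939 CPM per kilobase before Gpnmb at 692, Trem2 moved down to 123, and Pparg at 13.7 stood above Fabp4 at 7.16.

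**Figure D3:**
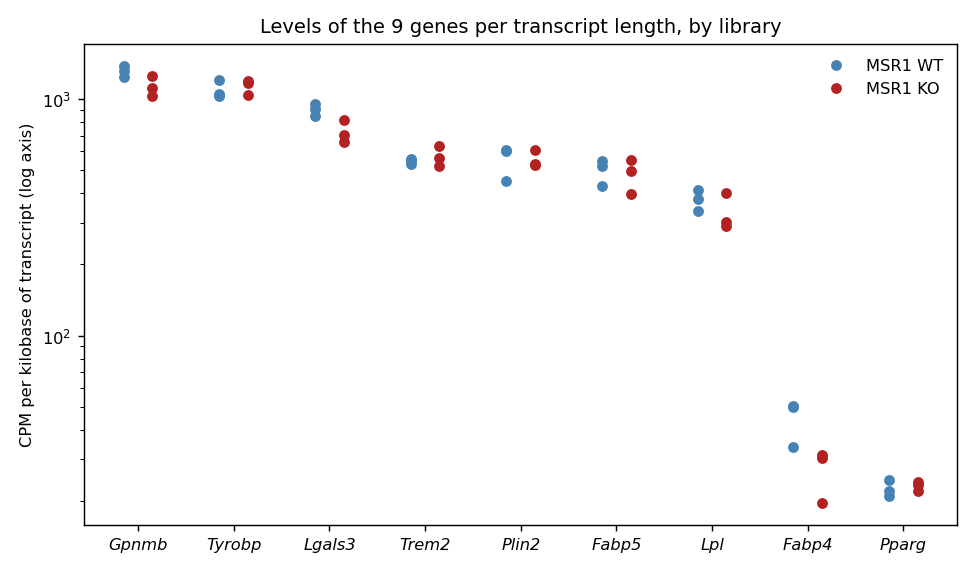
Level of the 9 genes per kilobase of their principal transcript (CPM per kilobase, log axis), in order of the mean over all 6 libraries; points are libraries, coloured by genotype. Gpnmb and Tyrobp lie highest, and a gap of 9.83 times separates Lpl from Fabp4.

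Other genes of the pathways around the 9 genes were read from lists. Of 238 genes written into 11 lists around them, 197 had enough counts to be tested; 20 fell and 14 rose at an adjusted p under 0.05 by edgeR, 17.3% of the 197 beside 4.91% of all tested genes. These lists were written with earlier results of the same libraries known, so the share is a description. The calls rested in part on individual libraries: 9 genes, all lower in MSR1 KO, passed with each of the 6 libraries left out in turn. They were Cd9, Mmp12, Itgax, Atp6v0d2, Csf1, Spp1, Anxa2, Pdk4 and Sdc1. When replicate 1 of either genotype was left out, 9 genes of the lists fell and 0 rose.

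**Figure D4:**
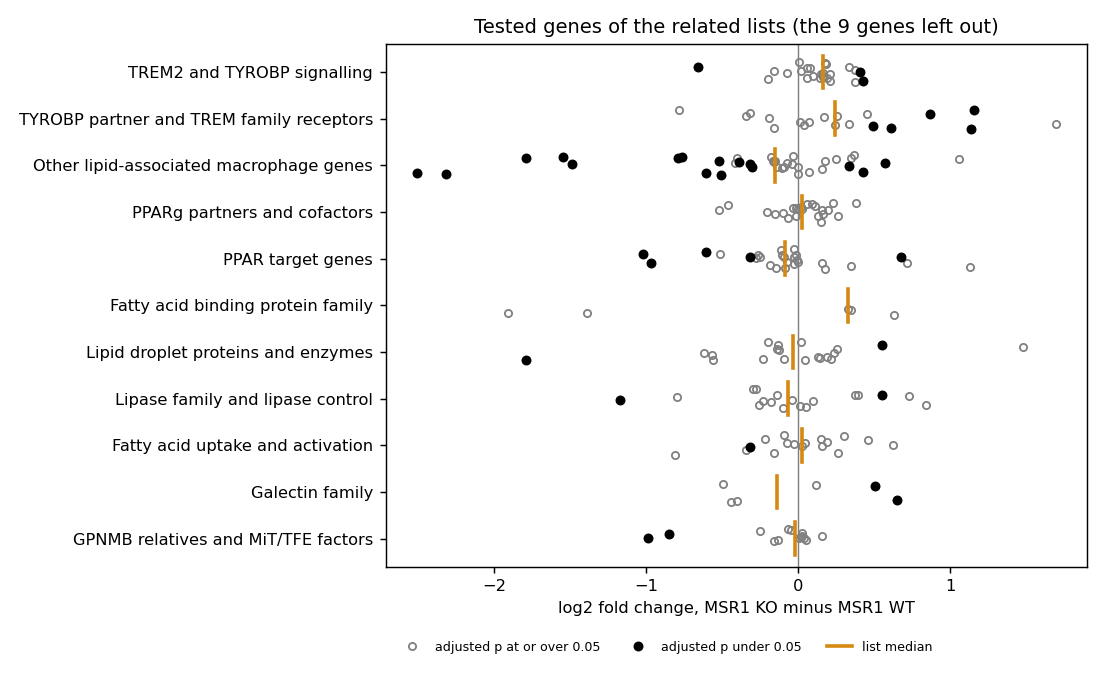
Log2 fold change, MSR1 KO over MSR1 WT, of every tested gene in each of the 11 related lists, the 9 lipid-associated genes left out; points are genes, filled where the adjusted p by edgeR was under 0.05, and the bar is the median of the list. The other lipid-associated genes hold 13 filled points below 0 and 3 above.

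Other genes described in lipid-associated macrophages moved in both directions. Of 37 measured, 13 fell and 3 rose by edgeR, beside 2.66% and 2.25% of all tested genes. The median log2 fold change of the 37 was -0.15. Mmp12, an elastase, was at 152 ± 6.48 CPM in MSR1 KO and 758 ± 146 CPM in MSR1 WT (log2 fold change -2.32), and the tetraspanin Cd9 was at 32.2 ± 0.628 and 93.7 ± 8.05 CPM (-1.54). Atp6v0d2, a subunit of the proton pump of lysosomes, was at 62.8 ± 4.62 and 176 ± 29.9 CPM (-1.48), and Csf1, which encodes M-CSF, at 70.6 ± 2.60 and 120 ± 2.75 CPM (-0.76). The integrin Itgax (CD11c, -2.50), Spp1 (osteopontin, -0.79) and Anxa2 (-0.60) also fell, and are named after their values were seen. Grn (progranulin, 0.43), Axl (0.57) and Npc2 (0.34) rose, likewise named after the fact, and none of these 3 kept its call in all 6 fits with 1 library left out. The most abundant genes of the list, Ctsb and Psap, had log2 fold changes of 0.00 and -0.04 and did not pass. Atp6v0d2 is also among the 3 osteoclast markers that fell, with the marker sums given beside Gpnmb, and the part of osteoclast markers in the 13 lower genes was not tested. With 1 library left out, 7 to 9 of the 37 fell and 0 to 3 rose.

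Around the receptor pair, genes of TREM2 and TYROBP signalling had 1 lower and 2 higher calls of 25, beside 4.91% of all tested genes. The Src-family kinase Lyn (log2 fold change 0.43, adjusted p = 0.033) rose by edgeR, and the adaptor Blnk (-0.66, adjusted p = 0.040) fell. Of the 6 fits with 1 library left out, Lyn kept its call in 2 and Blnk in 1. Syk, the kinase recruited by TYROBP, had a log2 fold change of -0.07 and did not pass. The list written for TYROBP partners and TREM family receptors had 5 higher and 0 lower calls of 19 by edgeR, 7 higher and 2 lower at an unadjusted p under 0.05, and 6 higher and 0 lower calls by DESeq2. The shares of all genes in either direction were 4.91% by edgeR, 18.9% at that unadjusted p and 9.95% by DESeq2. Not all of the 5 genes called by edgeR do what the name of the list says. Treml2, of the TREM family, was at 84.5 ± 1.87 CPM in MSR1 KO and 38.0 ± 9.47 CPM in MSR1 WT, and Fcgr1, the high-affinity receptor for IgG, which is known to signal through another adaptor chain, was at 563 ± 48.8 and 256 ± 68.9 CPM. Sirpb1a, Sirpb1b and Sirpb1c are close copies of each other, so the division of reads between them, and their log2 fold changes of 0.87, 0.61 and 0.49, are uncertain. None of the 5 passed when replicate 1 of either genotype was left out.

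Around Pparg, none of 23 tested partners and cofactors passed by edgeR. At an unadjusted p under 0.05, 1 had a lower and 1 a higher value, beside 18.9% of all tested genes. Of the 23, 1 (Cebpb, higher) passed by DESeq2, beside 9.95% of all genes. The most abundant of the 23, Stat6 and Ncoa3, had log2 fold changes of 0.13 and 0.16. Among 27 tested PPAR target genes other than the 9, 4 fell and 1 rose, beside 4.91% of all tested genes. Pdk4, a kinase that holds back glucose oxidation, was at 17.4 ± 0.77 CPM in MSR1 KO and 34.2 ± 5.34 CPM in MSR1 WT. The desaturase Scd1 (log2 fold change -1.02), malic enzyme Me1 (-0.61) and the fatty acid transporter Cd36 (-0.32) also fell, and transglutaminase Tgm2 (0.68) rose. Cd36, at 1801 ± 88.6 and 2246 ± 157 CPM, lost its call whichever library was left out, as did Tgm2. Of these 6 fits, Me1 kept its call in 1, Scd1 in 3 and Pdk4 in all 6.

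Around lipid storage and transport, the calls were 2 of 20 lipid droplet genes, 2 of 18 lipase genes and 1 of 17 genes of fatty acid uptake and activation, beside 4.91% of all tested genes. Among the lipid droplet genes Plin4 fell (-1.79), at 0.835 ± 0.283 CPM in MSR1 KO, and Lipe, hormone-sensitive lipase, rose (0.55). Plin4 lost its call whichever library was left out, and Lipe kept it in 1 of these 6 fits. Among the lipase genes Sdc1, a syndecan, fell (-1.17) and Lipe rose, and Cd36 was the call among the uptake genes. Of the fatty acid binding protein family, 8 of 16 genes were at 0 counts, 5 besides Fabp4 and Fabp5 were tested and none passed by edgeR, with 2 at an unadjusted p under 0.05 and 1 (Fabp7) past the threshold by DESeq2. The most abundant of them, Fabp7 (log2 fold change -1.39 with an adjusted p of 0.095 by edgeR), was at 1.14 ± 0.192 and 2.99 ± 1.61 CPM. Over all genes, 18.9% had an unadjusted p under 0.05 by edgeR and 9.95% passed by DESeq2.

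Around Lgals3 and Gpnmb, the calls differed in direction, and stand beside 4.91% of all tested genes. Of 6 tested genes of the galectin list, Lgals3bp (0.65), which encodes a ligand of galectins and no galectin, and Lgals9 (0.51) rose, whereas Lgals1 had a log2 fold change of -0.40 with an adjusted p of 0.15 by edgeR. Lgals3bp and Lgals9 each kept the call in 1 of 6 fits with 1 library left out. Of 14 tested relatives of GPNMB and MiT/TFE factors with their targets, Acp5 (-0.98) and Ctsk (-0.85) fell, and neither kept its call in all 6 fits with 1 library left out. Both encode enzymes that are abundant in osteoclasts, and they are also in the osteoclast marker list given beside Gpnmb.

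Because none of the 9 passed the adjusted test, genes with the most similar profile over the 6 libraries were sought for the 3 with the largest absolute fold change, among 9210 other tested genes with a mean of at least 10 CPM. Likeness was the root-mean-square difference of centred log2 CPM, where 0 means the same profile. The profiles nearest to Fabp4 were those of Sel1l3 (0.109), Blnk (0.160) and Clec4n (0.163). Those nearest to Lgals3 were Sdc4 (0.0374) and Gabarapl1 (0.0383), and those nearest to Gpnmb were Katnbl1 (0.0297), Tnfsf12 (0.0317) and Syngr1 (0.0374). The measure grows with the spread of the gene itself, so it is not comparable between Fabp4 and the other 2.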

How the data were processed

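RNA-seq of MSR1 KO and MSR1 WT macrophages after co-culture with BMSCs was analysed in 3 libraries per genotype. The deposited values used here were raw counts, 1 per gene in each library, which the authors had not normalized. Their table also holds counts divided by a size factor and their own log2 fold changes and p-values, which were not used. The submitters' processing notes name fastp 0.17.1, HISAT2 2.1.0, DESeq2 1.18.1 and R 3.4.3, whereas the paper's methods name TopHat. The counting program, strand setting and genome build are not given in the sources used here, so overlapping and near-identical genes may share reads. Positions matched the GENCODE annotation of GRCm38 for 49909 of 52550 genes and for all 9 genes. Only an antisense gene inside Pparg, with 0 counts, overlapped them.

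Counts were filtered with filterByExpr, scaled by TMM and tested by the quasi-likelihood F test of edgeR 4.0.16 (glmQLFit, glmQLFTest; R 4.3.3), with Benjamini-Hochberg adjustment over the 16402 tested genes. CPM used TMM-scaled library sizes, and a prior count of 2 for log CPM. Total counts of 36143518 to 47417448 limit precision for low genes, and 0 counts allow up to 3, for counting error only. Alternatives were DESeq2 1.42.0, DESeq2 size factors, library size alone, no filter, a minimum of 10 counts, the replicate number as a block and each library left out. The members and lists were chosen with earlier results of these data known. Genes named were the 9 members, Msr1, from each list up to 4 with the smallest p past an adjusted p of 0.05 and up to 2 with the highest mean CPM, the 3 nearest profiles, and the 3 most abundant and undetected markers; other names are marked, and some genes that this rule names are not reported here. The fit was tested on simulated counts, and the outcome is not reported here. 0 value columns lacked a sample. Macrophages were also studied by other assays, which were not analysed here.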

Additional observations from a re-analysis of the deposited data

How the results depend on the processing

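Over 12 alternatives, Tyrobp, Gpnmb and Lpl kept their direction and did not pass an adjusted p of 0.05. Fabp4 and Lgals3 kept their direction, and past the threshold came Fabp4 by DESeq2 (log2 fold change -0.72) and with the replicate block (-0.73, adjusted p = 0.047), and Lgals3 by DESeq2 (-0.30) and without MSR1 KO replicate 3. Replicate numbers did not pair the libraries: deviations of same-numbered libraries correlated at -0.026, 0.019 and -0.0048, not every library correlated best with its own number, and the block reduced the calls over all genes from 436 to 78 lower and from 369 to 59 higher.

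Leaving out 1 library at a time, the log2 fold change ran from -0.89 to -0.54 for Fabp4, -0.39 to -0.24 for Lgals3, -0.16 to 0.066 for Fabp5, -0.0073 to 0.13 for Trem2, -0.019 to 0.097 for Pparg and -0.13 to 0.073 for Plin2. Plin2, near 0, also turned positive with DESeq2 size factors (0.0042), DESeq2's test (0.0042), a minimum of 10 counts (0.0021) and the replicate block (0.0098).

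Of the 9 genes, 1 was lower past the threshold with the block, 2 by DESeq2 and 0 to 1 with a library left out (1 without MSR1 KO replicate 3), and 0 to 1 met the study's definition (0 without MSR1 KO replicate 2). Of the wider lists, 10 were lower and 3 higher with the block, 7 higher with no filter, and with a library left out 9 to 14 were lower and 0 to 13 higher. Over all genes, 288 were lower and 237 higher with no filter, 848 and 720 by DESeq2, and 53 to 372 and 18 to 407 with a library left out. Leaving out MSR1 WT replicate 1 gave the fewest. Each such fit has fewer samples; the cause of the other shifts was not tested. No scaling moved the median of all genes by over 0.1 (log2). With 3 libraries per group, the 95% intervals printed for the 9 genes set the size of difference that could be told from 0.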
